A study of Homo sapiens with 6 samples.

Results

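Keratin genes were examined in SUM-LM1 breast cancer cells that had met activin B or vehicle. A gene was a member when a probe set of the array carried 1 gene symbol made of KRT, a number and at most 1 letter, so that the keratin-associated proteins of hair were left out. This gave 56 probe sets for 44 genes, out of 54613 probe sets and 19775 named genes in all. Where a gene had several sets, it was read from the one whose mean signal over the 6 arrays was highest, and the remaining 12 sets served as a check. Of 55 protein-coding keratin genes listed in RefSeq for GRCh38.p14, 11 were not analysed here: KRT6A, KRT6B, KRT6C, KRT17, KRT26, KRT28, KRT34, KRT39, KRT81, KRT82 and KRT86.

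SUM-LM1 is a lung-metastatic derivative of the human breast cancer line SUM159, so all arrays come from a single cell line. The 3 activin B samples were exposed for 6 h to recombinant activin B, a TGF-β family ligand, at 50 ng/ml, and the 3 vehicle samples received BSA in PBS for the same time. Both groups floated in serum-free HuMEC medium with BSA on ultra-low attachment plates, conditions that let the cells form spheres. The labels call the replicates biological, and the comparison asked which transcripts respond to the ligand.

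Keratins are the intermediate filaments of epithelial cells. They work as pairs, each filament joining an acidic type I chain with a basic type II chain, and the pairs tell cell layers apart. In the mammary gland KRT5 with KRT14 marks the outer basal layer, whereas KRT8 with KRT18 marks the inner luminal layer. Filaments end at desmosomes between cells and at hemidesmosomes above the basement membrane. KRT15, a type I chain of basal cells that also marks stem cells of the hair follicle bulge, can pair with KRT5 as well.

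The label was checked against marker genes. VIM, the intermediate filament of mesenchymal cells, was bright at a log2 signal of 13.89 in vehicle (SD 0.0042, n = 3). EPCAM and CDH1, surface proteins that define most epithelia, lay at 6.20 and 6.27 in vehicle, under the median of 6.69 over all probe sets. Of 7 breast epithelial markers 3 lay above this median, and the mean of the list ran from 6.61 to 6.63 in vehicle and from 6.61 to 6.65 in activin B. Of 6 endothelial markers PECAM1 alone lay above it, and of 5 leukocyte markers CD3E alone. The mean of the endothelial list ran from 6.62 to 6.76 in vehicle and from 6.55 to 6.64 in activin B, and that of the leukocyte list from 6.43 to 6.51 and from 6.43 to 6.57. Groups did not overlap for EPCAM, PECAM1 and CD3E, whose log2 differences were 0.16 ± 0.061, -0.19 ± 0.072 and 0.20 ± 0.072 (SE; adjusted p = 0.878, 0.874 and 0.799 by limma). MUC1, an epithelial mucin, differed by -0.13 ± 0.075 (SE; adjusted p = 0.982). No marker passed the test, and the part of these levels in the keratin results was not tested.

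The medians of the arrays lay between 6.69 and 6.70. Activin B replicate 3 stood apart on the first principal component, at 21.7 against -10.6 to 5.70 for the other arrays. This component rose with the replicate number in both groups. In replicate order it was -10.6, -5.98 and 5.70 for vehicle and -9.10, -1.665 and 21.7 for activin B. The 3' to 5' difference in log2 signal, a measure of RNA integrity, averaged -0.042 over the vehicle arrays and -0.0063 over those of activin B for GAPDH (two-sided p = 0.4 by the exact permutation test). For ACTB it averaged 0.11 and 0.090 (two-sided p = 0.2 by the exact permutation test). With 3 arrays against 3 such a test does not go below 0.1, and the part of these differences in the keratin results was not tested.

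Among the 44 keratins measured, KRT15 alone passed the test, and it fell. Its log2 signal was 9.03, 8.92 and 8.89 in the vehicle samples and 7.82, 7.93 and 7.93 in the activin B samples. Every activin B sample lay about 1 log2 unit below every vehicle sample, and the groups did not come near each other. The group means were 8.95 ± 0.075 and 7.89 ± 0.063 (SD, n = 3), a log2 change of -1.05 ± 0.066 (SE; 95% interval -1.19 to -0.91; adjusted p = 1.13e-06 by limma). This corresponds to a level 2.07-fold lower with activin B. KRT15 was read from a single probe set, so no other set could check it. Without activin B replicate 3 the log2 change was -1.07 (adjusted p = 4.54e-06 by limma), with KRT15 still the single keratin called. With any 1 array left out it was -1.01 to -1.08, with adjusted p between 4.54e-06 and 3.93e-05. In these bulk samples, fewer cells with KRT15 and less KRT15 RNA per cell cannot be told apart.

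Of the 44 keratins 1 fell (2.27%), none rose and 43 did not pass; the threshold was an adjusted p of 0.05, taken over all probe sets. Among all 19775 genes, 0.091% were called lower and 0.101% were called higher. KRT15 had the lowest log2 change of all these genes, -1.05, which was known from an earlier analysis of these arrays. The share of 2.27% is this 1 gene, so it is no result about keratins as a group. At an unadjusted p under 0.05 stood 4 keratins, KRT15, KRT5, KRT4 and KRT38. They make up 9.09% of the keratins, against 5.89% of all genes. In 7 keratins the groups did not overlap, which is 15.9% of the keratins and compares with 10.3% of all genes. The 7 were KRT15, KRT5, KRT14, KRT18, KRT4, KRT38 and KRT79. The median log2 change was 0.00078 over the 44 keratins and -0.0017 over all genes, with 22 keratins above 0 and 22 below.

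Apart from KRT15, log2 changes ran from -0.21 for KRT5 to 0.17 for KRT4. The 95% intervals of these 43 genes all lay between -0.37 and 0.31. Most of these signals were low, however. The mean of 29 keratins lay under the median over all probe sets, between 6.13 and 6.68, and differences near background are compressed on such arrays. For these 29 genes the change in signal may understate the change in transcript. The same limit holds for keratins just above the median, such as KRT73 at 6.70 and KRT80 at 6.87.

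**Figure D1:**
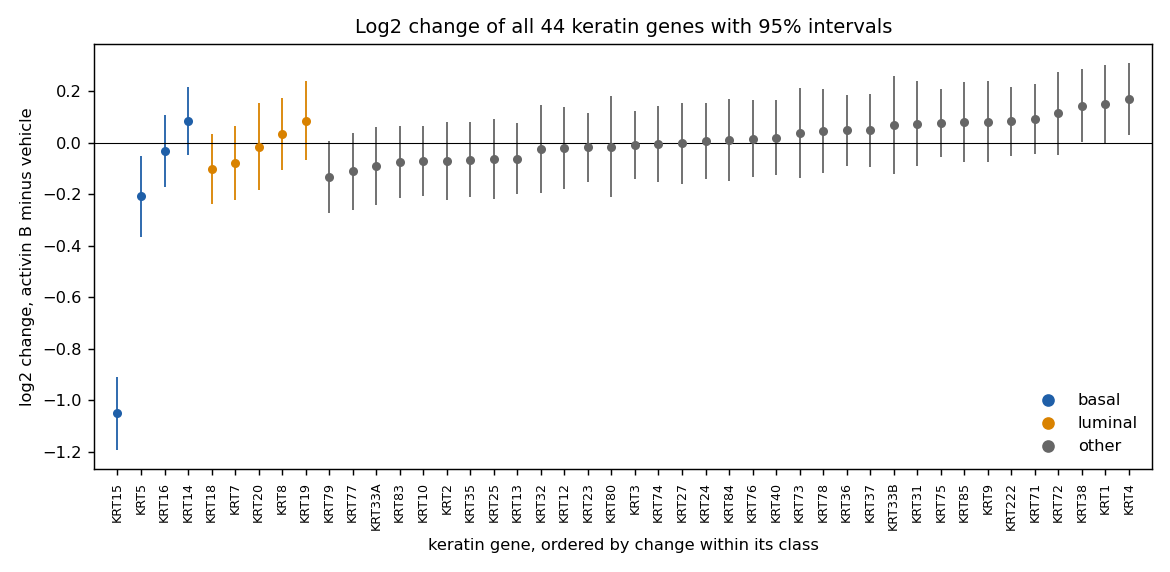
Log2 change (activin B minus vehicle) of the 44 keratin genes, with points for the estimate and lines for the 95% interval of the limma model, grouped into basal, luminal and other keratins. KRT15 stands at -1.05, and the 43 other genes lie between -0.21 and 0.17.

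Basal keratins were analysed for 4 of the 8 genes of that class, KRT5, KRT14, KRT15 and KRT16. The rest of the class, KRT6A, KRT6B, KRT6C and KRT17, had no probe set that carried 1 symbol only in the annotation. KRT5, the type II partner chain of basal cells, had log2 signals of 7.55, 7.70 and 7.41 in vehicle and 7.36, 7.36 and 7.32 in activin B. The activin B values were the lower ones and the groups did not overlap, but the vehicle samples were spread widely. The log2 change of -0.21 ± 0.074 (SE) did not pass (adjusted p = 0.801). KRT14, the usual type I partner of KRT5, had 11.55, 11.54 and 11.64 in vehicle and 11.66, 11.65 and 11.67 in activin B. Here the activin B samples were the higher ones, by a small margin, and the log2 change of 0.084 ± 0.062 (SE) did not pass (adjusted p = 0.995). KRT16, a type I keratin of wounded and fast-growing epidermis, had 7.34, 7.17 and 7.24 in vehicle and 7.23, 7.18 and 7.23 in activin B. The activin B values fell inside the vehicle range, with a log2 change of -0.034 ± 0.065 (SE; adjusted p = 0.999). The median log2 change of the 4 basal keratins was -0.12, and -0.034 without KRT15.

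KRT15 was also set against the other basal keratins within arrays, as a description, since it was singled out by its own change. The log2 signal of KRT15 minus that of KRT5 averaged 1.39 with an SD of 0.15 over the 3 vehicle arrays and 0.55 with an SD of 0.077 over the 3 activin B arrays, so the changes of these genes differed by -0.84 on the log2 scale. Against KRT14 the changes differed by -1.14, and against KRT16 by -1.02. With 3 arrays in each group, which can be labeled in 20 ways, an exact permutation test cannot give a two-sided p below 0.1, so it could not show that these changes differ. In each comparison the 3 activin B arrays lay below the 3 vehicle arrays. KRT5 and KRT16 had means of 7.45 and 7.23 over all arrays, not far above the median over all probe sets. The part of compression near background in these differences was not tested.

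**Figure D2:**
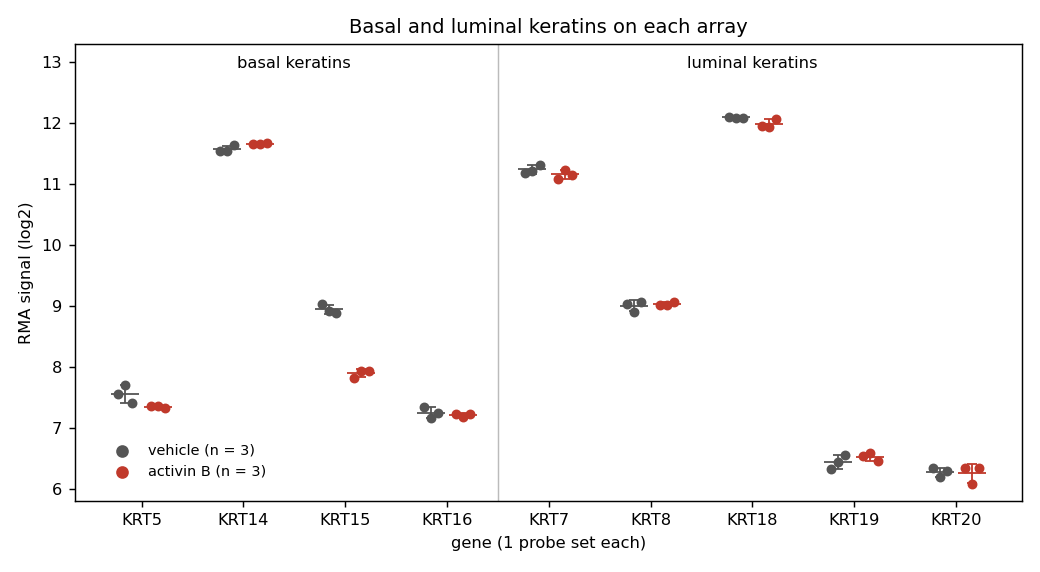
RMA signal (log2) of the basal keratins KRT5, KRT14, KRT15 and KRT16 and the luminal keratins KRT7, KRT8, KRT18, KRT19 and KRT20, with points for arrays, horizontal bars for group means and vertical bars for the SD (n = 3), grey for vehicle, red for activin B. KRT15 is the gene whose groups lie far apart, 8.95 in vehicle and 7.89 in activin B. Signals of different genes come from different probes and are not comparable in height.

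Luminal keratins did not pass in any of the 5 genes measured, and 0 of them had an unadjusted p under 0.05 by limma. KRT18, the type I chain of luminal and other simple epithelia, was bright at 12.11, 12.09 and 12.09 in vehicle and 11.96, 11.94 and 12.07 in activin B. Its activin B samples were all slightly lower, with a log2 change of -0.10 ± 0.063 (SE; adjusted p = 0.988). Its partner KRT8 had 9.03, 8.90 and 9.07 in vehicle and 9.02, 9.02 and 9.07 in activin B, groups that overlapped (log2 change 0.033 ± 0.066, SE; adjusted p = 0.999). KRT18 and KRT8 were each read from a single set, of a kind more prone to cross-hybridise, and no other set could check them. KRT7, a type II chain of glandular and ductal cells, had 11.18, 11.22 and 11.32 in vehicle and 11.09, 11.24 and 11.16 in activin B, with overlap (log2 change -0.080 ± 0.067, SE; adjusted p = 0.995). KRT19, a type I keratin found in luminal cells, and KRT20, a type I keratin mainly of gut epithelium, were dim. KRT19 lay at 6.43 ± 0.12 in vehicle and 6.52 ± 0.066 in activin B, and KRT20 at 6.27 ± 0.073 and 6.25 ± 0.16 (SD, n = 3). Their log2 changes were 0.085 ± 0.072 and -0.017 ± 0.079 (SE; adjusted p = 0.995 and 0.999). The median log2 change of the 5 luminal keratins was -0.017.

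The probe sets of KRT7 gave the widest range of any keratin with several sets. Of its 4 sets, the one read above gave the log2 change of -0.080, while the others gave 0.19, 0.073 and 0.052. The set with 0.19 had signals of 7.62, 7.58 and 7.65 in vehicle and 7.70, 7.76 and 7.94 in activin B. All its activin B values were higher, but the difference did not pass (adjusted p = 0.859). Of 9 keratins with several sets, the sets of 5 differed in sign, KRT7, KRT40, KRT74, KRT78 and KRT222. Outside KRT7 these changes ran between -0.078 and 0.082. The 2 sets of KRT19 gave 0.064 and 0.085, and the 3 sets of KRT10 gave changes from -0.071 to -0.036. None of the 12 sets that did not represent a gene passed.

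The 35 keratins outside both classes are mostly those of skin, cornea, mucosa and hair, and 27 of the 35 lay under the median signal. None passed by limma, and 2 had an unadjusted p under 0.05, against 5.89% of all genes. In 3 of the 35 the groups did not overlap, against 10.3% of all genes. Counts this small are no result about the class. KRT4, a type II keratin of mucosal epithelium, had 6.53, 6.64 and 6.52 in vehicle and 6.77, 6.65 and 6.77 in activin B. These dim groups were narrowly apart, with a log2 change of 0.17 ± 0.065 (SE; adjusted p = 0.876), and its second probe set gave 0.049. KRT38, a hair keratin, had 6.37, 6.40 and 6.25 in vehicle and 6.47, 6.55 and 6.43 in activin B, also narrowly apart (log2 change 0.14 ± 0.067, SE; adjusted p = 0.943). KRT79, a type II keratin of skin glands, had 6.59, 6.64 and 6.69 in vehicle and 6.41, 6.56 and 6.53 in activin B, lower and again narrowly apart (log2 change -0.14 ± 0.065, SE; adjusted p = 0.957). KRT13, the type I partner of KRT4 in mucosa, lay at a mean of 6.20 over all arrays with a log2 change of -0.063. The median log2 change of the 35 genes was 0.010, with 19 above 0 and 16 below.

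Grouped by site, the 5 keratins of suprabasal and palmoplantar epidermis (KRT1, KRT2, KRT9, KRT10 and KRT77) had log2 changes from -0.11 to 0.15, with a median of -0.071. KRT10, the type I chain that replaces KRT14 when epidermal cells leave the basal layer, was bright in both groups. It had 10.67, 10.68 and 10.62 in vehicle and 10.58, 10.66 and 10.52 in activin B, which overlapped (log2 change -0.071 ± 0.063, SE; adjusted p = 0.995). Its partner KRT1 had a dim signal with a log2 change of 0.15 ± 0.071 (SE; adjusted p = 0.956). The 5 keratins of cornea and mucosa (KRT3, KRT4, KRT12, KRT13 and KRT76) ran from -0.063 to 0.17.

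Keratins of hair gave no called member either. The 12 genes of the hair shaft had log2 changes from -0.092 to 0.14, with a median of 0.033, and the 7 genes of the root sheath from -0.065 to 0.11, with a median of 0.037. KRT83 and KRT85, type II chains of the shaft, lay just above the median over all probe sets, with changes of -0.075 ± 0.065 and 0.080 ± 0.073 (SE; adjusted p = 0.995 for both). KRT75, a type II keratin of the layer that accompanies the hair root sheath, had a probe set far above that median. Its signals were 11.05, 11.08 and 11.15 in vehicle and 11.15, 11.17 and 11.20 in activin B, with a log2 change of 0.075 ± 0.062 (SE; adjusted p = 0.995). The 6 remaining genes, KRT23, KRT24, KRT78, KRT79, KRT80 and KRT222, ran from -0.14 to 0.082. KRT80, a type II keratin of several epithelia, varied widely within both groups, at 7.03, 6.66 and 6.94 in vehicle and 6.91, 6.96 and 6.71 in activin B. Its log2 change of -0.015 had a standard error of 0.092, the largest among the 44 genes.

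Position in the genome was compared next, because most keratin genes lie side by side. In the RefSeq order, 28 protein-coding keratins lie on chromosome 17, 23 of them measured, and 27 on chromosome 12, 21 of them measured. The first group holds type I genes, and the second holds the type II genes and KRT18. KRT15 lies between KRT13 and KRT19, followed by KRT9, KRT14 and KRT16. The log2 change was -0.063 ± 0.064 for KRT13, 0.085 ± 0.072 for KRT19, 0.081 ± 0.073 for KRT9, 0.084 ± 0.062 for KRT14 and -0.034 ± 0.065 for KRT16 (SE; adjusted p from 0.995 to 0.999). Both direct neighbors had small changes that did not pass, on either side of a gene that fell by 1.05 on the log2 scale. However, KRT13 and KRT19 lay under the median over all probe sets, at means of 6.20 and 6.48 over all arrays. KRT9, at 6.76, lay just above it. A fall in such dim genes might not show in the signal, so whether they responded with KRT15 cannot be told. Across the 24 type I genes measured the median log2 change was -0.010, and across the 20 type II genes it was 0.013.

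**Figure D3:**
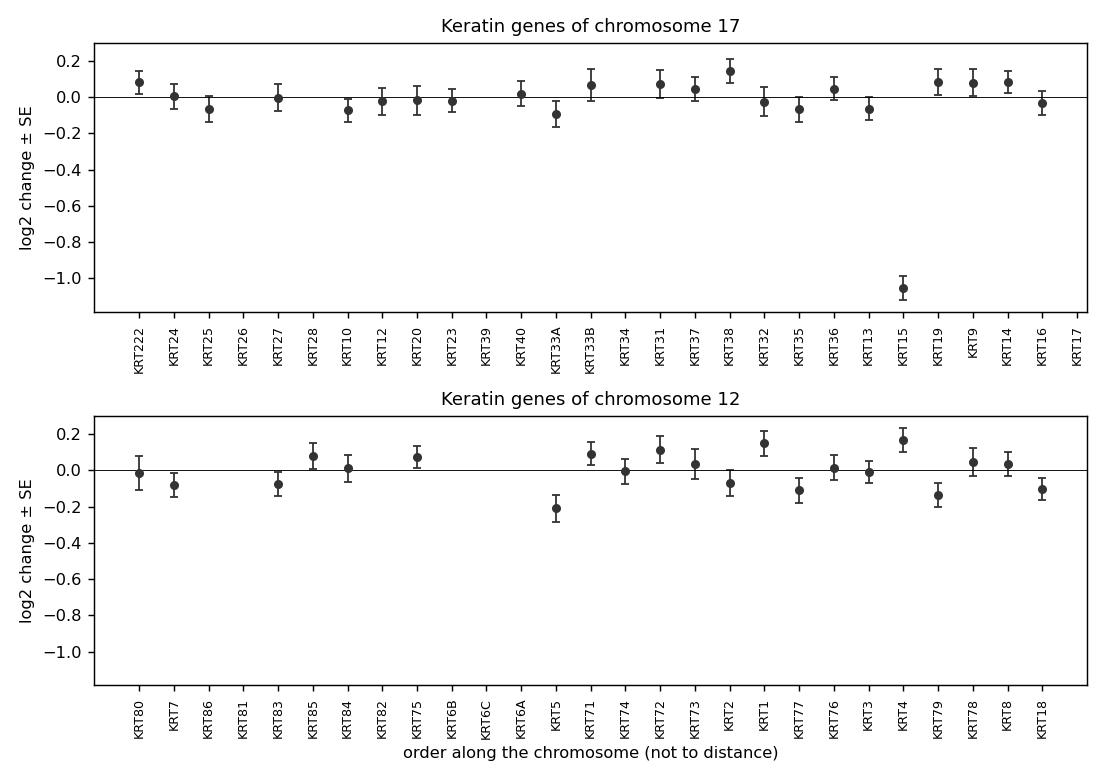
Log2 change (activin B minus vehicle, points) with its SE (lines) of keratin genes in their order along chromosome 17 and chromosome 12, spaced evenly and not by distance; names with no point were not analysed. KRT15 stands at -1.05 on chromosome 17 between KRT13 at -0.063 and KRT19 at 0.085, both dim genes.

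Genes that work with keratins were read from 6 lists. Of 75 measured members none passed by limma in either direction. With the replicate number as a block in the model, 1 was called, EHF. Without the block 7 had an unadjusted p under 0.05, against 5.89% of all genes (JUP, EHF, GRHL2, BFSP2, KRTDAP, TGM1 and SFN). In 7 of the 75 the groups did not overlap, against 10.3% of all genes. The median log2 change over the 75 genes was -0.0088.

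Desmosomes, the junctions that hold keratin filaments between cells, gave no called gene among 14. JUP, or plakoglobin, which links desmosomal cadherins to the filament anchor, had the smallest p. Its log2 signal was 9.55, 9.34 and 9.46 in vehicle and 9.24, 9.27 and 9.25 in activin B, lower in each activin B sample by a small amount (log2 change -0.20 ± 0.067, SE; adjusted p = 0.778). PKP2, a plakophilin, and DSC2, a desmosomal cadherin, followed with -0.12 ± 0.061 and 0.12 ± 0.071 (SE; adjusted p = 0.959 and 0.988). DSP, the desmoplakin that binds keratin filaments directly, had -0.093 ± 0.076 (SE; adjusted p = 0.995). Among 9 genes of hemidesmosomes and plakins, the changes ran from -0.096 for EPPK1 to 0.10 for PLEC, with DST at 0.070 (adjusted p = 0.995 for each), and 0 had an unadjusted p under 0.05.

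Among transcription factors of epithelial cells stood the largest change of the 75 genes. EHF, an ETS factor of glandular epithelium, had log2 signals of 9.97, 10.15 and 10.24 in vehicle and 9.66, 9.77 and 9.85 in activin B. All activin B values lay below the vehicle values. The log2 change of -0.36 ± 0.078 (SE; 95% interval -0.53 to -0.20) did not pass without a replicate block (adjusted p = 0.156 by limma). With the replicate number as a block in the model, the change of EHF passed (adjusted p = 0.0279 by limma). GRHL2, a grainyhead factor that supports epithelial gene programs, was dim, with a log2 change of -0.22 ± 0.070 (SE; adjusted p = 0.691). KLF5, a zinc finger factor of basal and other epithelial cells, had 0.16 ± 0.079 (SE; adjusted p = 0.957). Over the 15 factors measured the median was -0.020, and the basal regulator TP63 was not analysed here.

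Other intermediate filaments, the cornified envelope and keratin chaperones gave no call either. BFSP2, a lens filament protein, had 0.17 ± 0.069, and the neural filaments NES and NEFH had 0.065 ± 0.060 and 0.066 ± 0.065 (SE; adjusted p = 0.887, 0.995 and 0.995). VIM had signals of 13.89, 13.89 and 13.90 in vehicle and 13.90, 13.87 and 13.95 in activin B, which overlapped (log2 change 0.011 ± 0.061, SE; adjusted p = 0.999). Of 14 genes of the cornified envelope, the tough outer coat of dead skin cells, KRTDAP and TGM1 had -0.18 ± 0.075 and -0.18 ± 0.077 (SE; adjusted p = 0.906 and 0.930), and SPRR1B had -0.081 ± 0.070 (SE; adjusted p = 0.995). Of 8 chaperones and binders, SFN, a 14-3-3 protein of epithelial cells that binds keratins, had -0.14 ± 0.062 (SE; adjusted p = 0.934). STUB1, a ubiquitin ligase, and FAM83H, a keratin-binding protein, had -0.075 ± 0.065 and 0.069 ± 0.068 (SE; adjusted p = 0.995 for both).

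**Figure D4:**
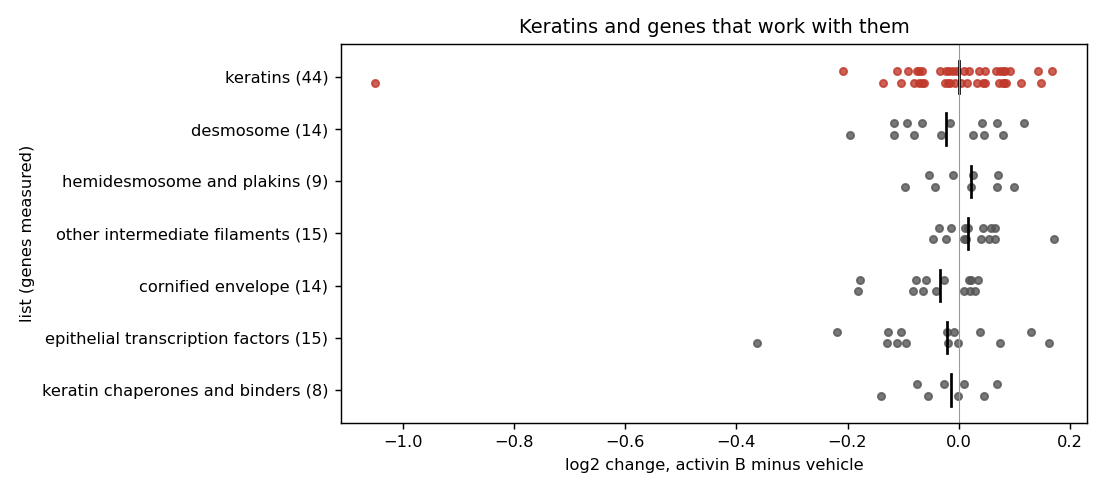
Log2 change (activin B minus vehicle) of each gene of the keratins, in red, and of 6 lists of genes that work with keratins, in grey, with the number of genes measured after each name; points are genes and black bars are medians. Apart from KRT15 at -1.05, EHF lies lowest at -0.36.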

How the data were processed

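RNA of 3 vehicle and 3 activin B samples was labeled and hybridised to Affymetrix Human Genome U133 Plus 2.0 arrays. The authors ran robust multiarray averaging (RMA) in Chipster, and the deposited values are log2 signals of probe sets. This removes changes shared by most transcripts and compresses differences near background; scanner files were not used here, so no scan batch was tested. Groups came from the sample titles. Leaving out 62 control sets of the array, 54613 probe sets were fitted with limma 3.58.1 in R 4.3.3 (a linear model with empirical Bayes moderation, the kind of test the methods of the study name), with Benjamini-Hochberg adjustment over all sets. Errors of changes are its standard errors, and 3 arrays per group limit the precision. The p values rest on the 6 arrays alone, but not on the spread of each set by itself. In the moderation, the spread over all probe sets weighed 10.8 degrees of freedom and that of the set itself 4.

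Symbols came from the platform annotation: 41091 sets carried 1 symbol, 1801 several and 11721 none. Of these 41091, 41037 matched RefSeq (GRCh38.p14) by gene identifier. RefSeq gave gene order only, since the array files name no build.

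Genes named were all basal and luminal keratins, other keratins with an unadjusted p under 0.05 or among the 5 brightest, and up to 3 genes per companion list with the smallest p. KRT1, KRT9, KRT13, KRT40, KRT74, KRT78, KRT79, KRT222, DSP, VIM and the markers were named beyond this rule, after their values were seen. KRT2, KRT3, KRT12, KRT23, KRT24, KRT76 and KRT77 were named only as members of their group. Members, classes and lists were chosen with earlier results of these data known. The model was tested on simulated data with independent arrays. These held nothing shared by equal replicate numbers, so that test does not cover such a structure. Alternatives were the replicate block, 2 filters on dim sets, 3 normalizations, trend and robust priors, array weights, omission of each array, the mean of all sets of a gene, and preferring sets whose names end in neither _x_at nor _s_at. Figures were drawn with matplotlib 3.10.9.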

Additional observations from a re-analysis of the deposited data

How the results depend on the processing

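The fall of KRT15 kept its direction and passed under all 17 alternatives (adjusted p from 7.02e-08 to 3.93e-05 by limma), and each gave 1 keratin lower and 0 higher. Not all of these could alter its log2 change. KRT15 has a single probe set, and the block, the filters on dim sets, the priors and the rules for the probe set leave its change at -1.05. The sample titles do not say whether equal replicate numbers pair arrays of both groups. Same-numbered arrays correlated weakly in their deviations from the group means, at 0.162, 0.041 and 0.192, yet all 6 correlated best with their own number. With the replicate number as a block, KRT15 had an adjusted p of 2.69e-06, and 1 companion gene was called instead of 0, EHF (adjusted p = 0.0279). Over all genes the block gave 24 higher and 29 lower, against 20 and 18 without it, 38 genes being shared.

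Of values that did not pass, the sign turned for KRT7 with the mean of all its sets (0.058) or the brightest set of a kind less prone to cross-hybridise (0.187), and for KRT80 with array weights (0.0288). With 1 array left out, log2 changes spanned -0.0754 to 0.0117 for KRT16, -0.0638 to 0.0739 for KRT20, -0.0164 to 0.0670 for KRT8 and -0.124 to 0.0601 for KRT80.

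Class medians moved by more than their spread between arrays in some settings. The basal median was -0.483 among sets with a mean of 7.5 or more, which leaves out KRT5 and KRT16, and -0.159 to -0.100 with 1 array left out. The luminal median was -0.0799 under both filters on dim sets, which leave out KRT19 and KRT20. It was 0.0334 under both other rules for the probe set, where KRT7 turned positive. With 1 array left out it was -0.0611 to 0.0419, and the median of the other keratins was then -0.00852 to 0.0243. The causes of the shifts with 1 array left out were not tested. Dim signals limit what the 29 keratins under the median, and those just above it, can show.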
